A study of Rattus norvegicus with 4 samples.

Results

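The genes described here are 10 peptidases that trim peptides at or near the cell surface, namely Enpep, Anpep, Lnpep, Mme, Ece1, Ace, Dpp4, Cpm, Cpd and Cpe. They were followed on Affymetrix rat expression arrays hybridised with RNA of RT4D6 cells, a rat Schwannoma line, that is, a tumour line of the glia of peripheral nerve. In the same line 2 siRNA groups were compared, each on 2 arrays and at 48 h: the wild type siRNA, which is specific to Sox10, and the mutant siRNA, its control, so that "wild type" names the siRNA and not the cells. Members are all probe sets to which the platform annotation gives exactly 1 gene symbol and that symbol is one of the 10 genes. This rule found 16 probe sets of 31042, after control probe sets were left out. The gene set was put together with values of this same comparison known. Enpep probe set 1368513_at is also in the study's own selection of strongly decreased probe sets from these arrays. Signals and fold changes of the 10 genes are therefore given as a description, with no p-value.

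The values are MAS5 signals, a linear brightness summarised over the probes of a probe set. Array medians lay between 101 and 110 and 25th percentiles between 26.2 and 31.0. A signal under the 25th percentile of its array is called close to background below. Log2 signals were centred on the array median, and 16125 probe sets that reached the array median on at least 2 arrays were tested with limma. All log2 fold changes are wild type minus mutant siRNA, and a negative value is a lower signal with the siRNA against Sox10. Sox10 itself had signals of 163 and 335 with the wild type siRNA and of 2873 and 2890 with the mutant siRNA, which gave a log2 fold change of -3.54 with a standard error (SE) of 0.33 (limma adjusted p = 0.0013). The line is a tumour line, and the labels give no further source for the replicates. The paper describes the pairs of cell samples as independent, but no label says that the replicates are separate cultures. If they are not, the errors measure technical spread.

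Ectopeptidases sit in the plasma membrane with their active site outside, most of them as zinc enzymes, and cut short peptides such as angiotensins, kinins, endothelins and neuropeptides. Aminopeptidases take residues from the amino end, dipeptidyl peptidases take them there in pairs, and endopeptidases cut further inside. Carboxypeptidases take residues from the carboxyl end, and peptidyl dipeptidases take them there in pairs. By such cuts a peptide is activated, turned into another ligand or destroyed before it reaches its receptor. In peripheral nerve, neprilysin, the product of Mme, is known from Schwann cells.

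The promoters of the members are shown because the transcript of Sox10, a factor that binds ACAAT cores, differs between the groups. Sequences were taken from RefSeq on the GRCr8 assembly, and 9 of the 10 genes matched. The ACAAT core, or ATTGT on the other strand, was searched in the 250 bases before the start of each gene, as was the GC box, GGGCGG or CCGCCC. The printed stretches end at the base before the start for Enpep (chr2:220526219-220526338, minus strand), Lnpep (chr1:67027611-67027730, minus strand) and Cpm (chr7:55111479-55111598, plus strand), which are the genes with the largest differences, and hold the only ACAAT core found for Cpe (chr16:29796457-29796516, plus strand). Capitals mark these motifs.
Enpep: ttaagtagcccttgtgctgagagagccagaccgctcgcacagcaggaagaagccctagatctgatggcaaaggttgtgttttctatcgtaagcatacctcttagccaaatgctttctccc
Lnpep: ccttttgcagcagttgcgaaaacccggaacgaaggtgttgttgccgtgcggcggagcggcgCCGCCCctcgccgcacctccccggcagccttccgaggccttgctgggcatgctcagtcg
Cpm: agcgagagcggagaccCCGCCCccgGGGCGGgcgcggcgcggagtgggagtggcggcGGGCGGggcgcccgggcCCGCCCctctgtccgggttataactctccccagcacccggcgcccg
Cpe: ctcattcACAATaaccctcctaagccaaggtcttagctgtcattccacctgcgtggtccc

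An ACAAT core was present in 1 of the 9 windows, that of Cpe, 243 bases before the start, against 30.02% of all 33469 rat promoters of this length. A GC box was present in 6 of the 9 windows, against 30.47% of all promoters. The window of Cpm had 74.8% G and C and that of Lnpep 71.6%, whereas that of Enpep had 45.2% and no GC box. Over all promoters the median was 51.2%. The promoters of Enpep and Cpm thus differed in base composition. A match is only a run of letters in this window. Introns and distant elements were not searched.

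Of the 16 probe sets, 9 from 7 genes passed the filter on low signals, and 7 did not. Anpep, Ace and Dpp4 had no tested probe set. Among the 9, 3 were called lower, where 12.1% of all tested probe sets were lower, and 2 were called higher, where 14.6% were. The lower ones belonged to Enpep, Cpm and Cpd, and both higher ones to Lnpep. The other 4, for Mme, Ece1, Cpe and a second probe set of Cpm, were not called. The median log2 fold change of the 9 was -0.20, and that of all tested probe sets was 0.13. The genes were chosen on this comparison and the filter keeps a probe set that is bright in a single group, so these counts describe the members and are no evidence of a shared direction.

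**Figure D1:**
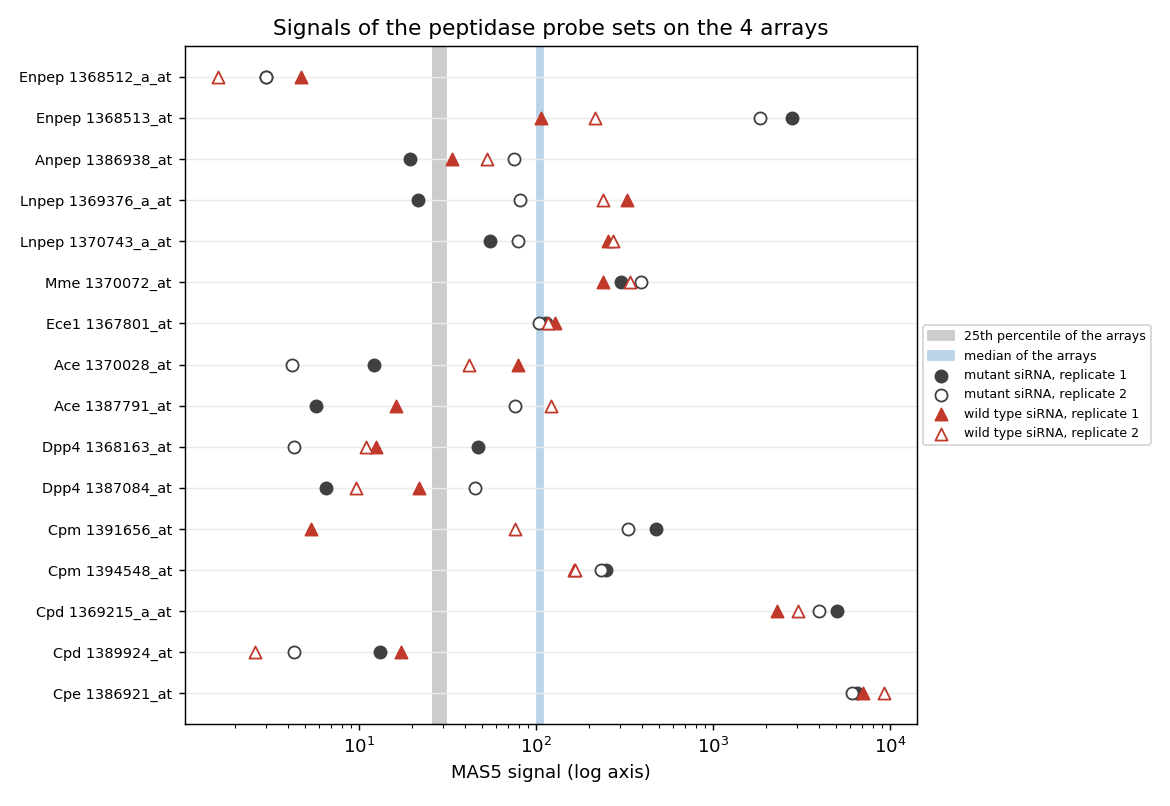
The 16 peptidase probe sets by their MAS5 signal (log axis) on the 4 arrays. Circles are mutant siRNA arrays and triangles wild type siRNA arrays, filled for replicate 1 and open for replicate 2, and the bands span the 25th percentiles and the medians of the arrays. Enpep probe set 1368513_at lies at 1840.1 and 2809 with the mutant siRNA and at 107 and 216.5 with the wild type siRNA.

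Enpep encodes glutamyl aminopeptidase, also called aminopeptidase A, which removes acidic residues from the amino end and turns angiotensin II into angiotensin III. Its probe set 1368513_at had signals of 107 and 216.5 with the wild type siRNA and of 2809 and 1840.1 with the mutant siRNA. Both wild type siRNA arrays lay far below both mutant siRNA arrays, and all 4 signals were at or above the array median. The log2 fold change was -3.82 (SE 0.37), a 14.2-fold decrease, and the decrease was 25.7-fold between the replicate 1 arrays and 7.80-fold between the replicate 2 arrays. This was the 30th lowest of 16125 values. With each array left out in turn the log2 fold change stayed between -4.36 and -3.29. The other Enpep probe set, 1368512_a_at, had signals of 4.70 and 1.60 with the wild type siRNA and 3.0 and 3.0 with the mutant siRNA, close to background on all 4 arrays, and carries no information on the gene.

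Lnpep encodes the leucyl and cystinyl aminopeptidase, or oxytocinase, which cuts oxytocin and vasopressin and travels between endosomes and the surface in insulin-responsive vesicles. It moved in the opposite direction to Enpep, although both enzymes belong to the same family, M1. Probe set 1369376_a_at had signals of 328 and 240.1 with the wild type siRNA and of 21.7 and 81.9 with the mutant siRNA. Probe set 1370743_a_at had 256 and 272 with the wild type siRNA and 55.4 and 79.8 with the mutant siRNA. In both, the groups did not overlap, and the mutant siRNA signals lay under the array median, with 21.7 close to background. The log2 fold changes were 2.81 (SE 0.65) and 2.07 (SE 0.41). Both probe sets passed the filter through the wild type siRNA arrays alone. Leaving out single arrays gave 1.87 to 3.75 for the first, whose call was lost without wild type siRNA replicate 1, and 1.82 to 2.31 for the second.

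Anpep encodes aminopeptidase N, which removes neutral residues and degrades enkephalins and angiotensin III. Its probe set 1386938_at had signals of 33.7 and 53.1 with the wild type siRNA and of 19.4 and 75.0 with the mutant siRNA. All 4 signals lay under the array median and the groups overlapped, so no change was measurable. The 3 surface aminopeptidases thus showed 3 patterns, with Enpep lower, Lnpep higher and Anpep too dim to test.

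Mme encodes neprilysin, the endopeptidase that inactivates enkephalins, tachykinins and natriuretic peptides. The signals of its probe set 1370072_at were 239 and 340 with the wild type siRNA, against 304 and 394 with the mutant siRNA. The groups overlapped, and the log2 fold change was -0.20 (SE 0.29). It turned to 0.078 without wild type siRNA replicate 1.

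Ece1 encodes the endothelin-converting enzyme, which releases mature endothelin from its precursor. Its probe set 1367801_at had signals of 129 and 118 with the wild type siRNA and of 114 and 104 with the mutant siRNA. The 4 signals lay near the array medians, and the log2 fold change of 0.26 (SE 0.44) was smaller than its error.

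Ace encodes the angiotensin-converting enzyme, which makes angiotensin II, the substrate of aminopeptidase A, and destroys bradykinin. Probe set 1370028_at had signals of 79.7 and 42.2 with the wild type siRNA, against 12.2 and 4.20 with the mutant siRNA. The groups did not overlap, but all 4 signals lay under the array median and both mutant siRNA signals were close to background, so the probe set was not tested. Probe set 1387791_at had signals of 16.2 and 122 with the wild type siRNA and 5.70 and 76.1 with the mutant siRNA. Here the groups overlapped, and replicate 2 was brighter than replicate 1 in both groups. Ace thus showed no level that would allow a comparison.

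Dpp4 encodes a dipeptidyl peptidase that cuts after proline or alanine and inactivates incretins and chemokines. Probe set 1368163_at had signals of 12.5 and 11.0 with the wild type siRNA and of 47.1 and 4.30 with the mutant siRNA. Probe set 1387084_at had signals of 21.9 and 9.60 with the wild type siRNA and of 6.50 and 45.1 with the mutant siRNA. In each probe set 3 of the 4 arrays were close to background and the groups overlapped.

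The carboxypeptidases Cpm, Cpd and Cpe belong to a single subfamily of zinc enzymes that remove lysine and arginine from the carboxyl end. Cpm is held on the outer surface by a glycosylphosphatidylinositol anchor and trims kinins and growth factors. Its probe set 1391656_at had signals of 5.40 and 76.1 with the wild type siRNA and of 478 and 332 with the mutant siRNA. The groups did not overlap, and the wild type siRNA arrays differed greatly from each other, with replicate 1 close to background. The log2 fold change was -4.22 (SE 1.09), the 21st lowest value, and -3.03 with a floor at each array's 25th percentile. It ran from -6.15 to -2.28 when single arrays were left out. The call was lost when mutant siRNA replicate 1 or mutant siRNA replicate 2 was left out, and the probe set had passed the filter through the mutant siRNA arrays alone. The size of this decrease is not established.

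A second probe set of Cpm gave a much smaller difference. In 1394548_at the signals were 165.5 and 166 with the wild type siRNA and 249 and 233 with the mutant siRNA. Again both wild type siRNA arrays lay below both mutant siRNA arrays, and all 4 signals were above the array median. The log2 fold change was -0.46 (SE 0.31) and was not called by limma. The methods' t-test before adjustment did the reverse, calling 1394548_at and not 1391656_at. The probe sets of Cpm had the same direction but sizes of -4.22 and -0.46, and which transcripts each detects was not tested.

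Cpd encodes a larger carboxypeptidase that cycles between the Golgi apparatus and the surface. Its probe set 1369215_a_at had signals of 2310 and 3031 with the wild type siRNA and of 5049 and 3976 with the mutant siRNA. The groups did not overlap, and the log2 fold change was -0.68 (SE 0.21), a 1.60-fold decrease that was 2.13-fold between the replicate 1 arrays and 1.20-fold between the replicate 2 arrays. The call was marginal. It was lost without wild type siRNA replicate 1 (-0.46), without mutant siRNA replicate 1 (-0.49) and without mutant siRNA replicate 2 (-0.87). The call was also lost with a pseudocount, with no filter on low signals and without an intensity trend in eBayes. The other Cpd probe set, 1389924_at, had 17.3 and 2.60 with the wild type siRNA and 13.2 and 4.30 with the mutant siRNA, close to background on all 4 arrays.

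Cpe encodes the carboxypeptidase of secretory granules, which finishes the processing of prohormones and neuropeptides and reaches the surface by secretion. Its probe set 1386921_at had signals of 7057 and 9244.5 with the wild type siRNA and of 6551 and 6097 with the mutant siRNA. Both wild type siRNA signals were the higher ones, and the log2 fold change was 0.43 (SE 0.18), which was not called. It passed the test with the replicate number as a block at the same value, with an SE of 0.15, and without wild type siRNA replicate 1, at 0.65. Among the carboxypeptidases the called probe sets were lower and that of Cpe, not called, lay above 0.

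**Figure D2:**
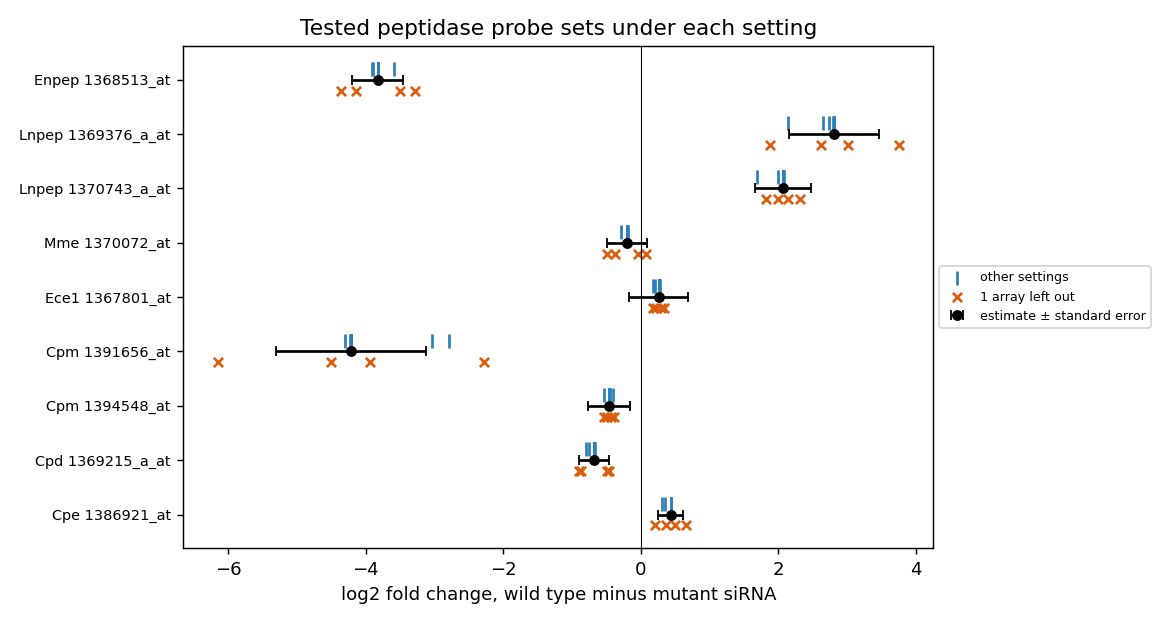
Log2 fold change, wild type minus mutant siRNA, of the 9 tested peptidase probe sets. Black points with bars are estimates with standard errors, blue ticks the other settings tried and orange crosses the values with 1 array left out, which run from -4.36 to -3.29 for Enpep and from -6.15 to -2.28 for the Cpm probe set 1391656_at.

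**Figure D3:**
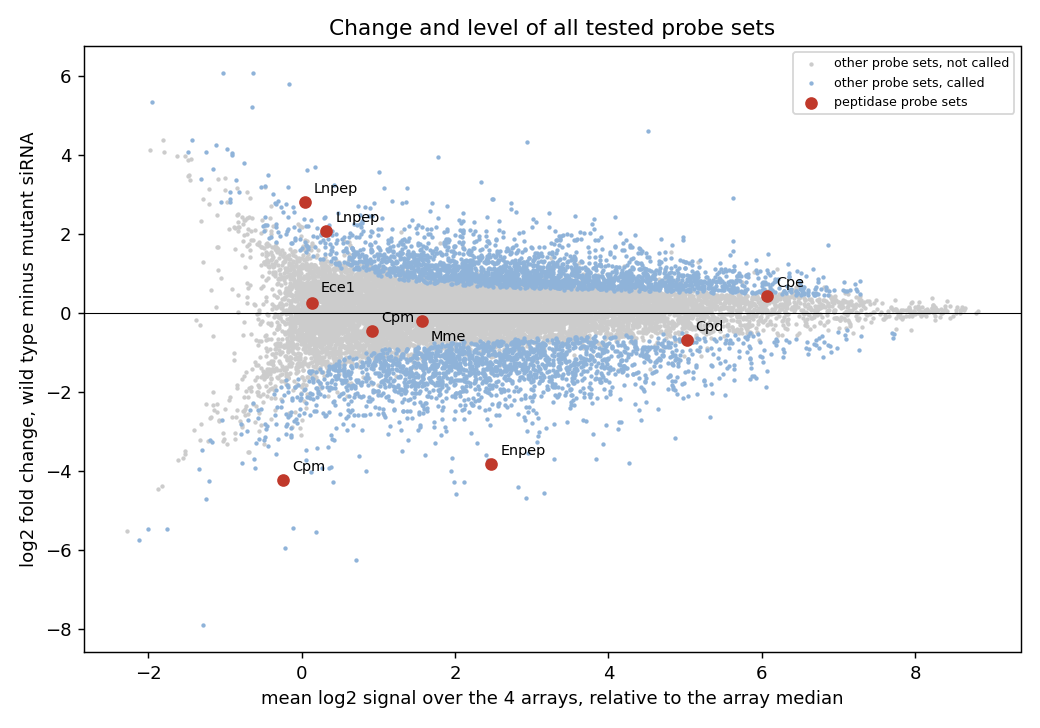
Log2 fold change, wild type minus mutant siRNA, plotted over brightness, the log2 signal relative to the array median averaged over the 4 arrays. Each point is a probe set of the 16125 tested, blue where called at an adjusted p under 0.05 and grey where not, and the 9 peptidase probe sets are red. Enpep lies at -3.82, below nearly all others of its brightness, whereas Mme, Ece1 and the second probe set of Cpm lie within the grey band.

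Markers of cell types moved between the same groups. In RNA of a whole culture, fewer cells with a transcript and less of it in each cell cannot be told apart. The Schwann cell markers compared, each with 1 probe set, were S100b, Ngfr, Gfap, Erbb3 and Mia, beside Sox10, the target of the siRNA. Leaving out Sox10, all 5 were lower by limma (median log2 fold change -3.59). Ngfr and Erbb3 are among the genes that the study selected for their decrease on these arrays. The paper also names GFAP and p75 (Ngfr) as lower in its profiling. It names smooth muscle genes, among them alpha-smooth muscle actin (Acta2), as higher there, and describes an apparent transdifferentiation into smooth muscle cells. Erbb3 passed the filter through the mutant siRNA arrays alone. The calls of the Schwann cell markers are therefore a description and no independent support for a loss of markers. The summed signal of these 5 was 980 and 1313 on the wild type siRNA arrays, against 14550 and 10368 on the mutant siRNA arrays, where the markers of the labelled cell type were thus present. Of 5 tested probe sets for 6 smooth muscle markers, 2 were higher, Acta2 at 2.37 (limma adjusted p = 0.0181) and Tagln at 1.72 (limma adjusted p = 0.00247). As the paper already names smooth muscle genes as higher, these calls too are a description and no independent support. The other tested probe sets were not called, with Myh11 at 1.37 and those of Smtn in the opposite direction, at -0.84 (limma adjusted p = 0.0633) and -0.47. Des was not tested, and its signals of 30.6 and 53.3 with the wild type siRNA lay below those of 62.8 and 96.6 with the mutant siRNA. The summed signal of the list, 23950.0 and 28785 against 6750.0 and 11347, was mostly that of Tagln, 21242 and 22657 against 5482 and 9015. Pericytes and other perivascular cells also carry Enpep. Of 6 pericyte markers 2 probe sets were tested, both of Pdgfrb, and neither was called by limma, adjusted or at an unadjusted p under 0.05, nor by the methods' t-test. Over all 10 probe sets of the 6 pericyte markers, most of them not tested, the summed signal was 689 and 851 with the wild type siRNA. It was 944 and 1023 with the mutant siRNA. No macrophage probe set passed the filter, with summed signals of 232 and 237 against 98.3 and 253. The 1 tested endothelial probe set and the 2 tested fibroblast probe sets were not called by limma. At an unadjusted p under 0.05 limma had 0 of the former and 1 of the latter, and the methods' t-test had 1 and 0. Endothelial markers summed to 334 and 192 against 144 and 158, and fibroblast markers to 2405 and 3963 against 2288 and 2476. A signal above 0 does not by itself show that a marker was present. The macrophage marker Itgam, the endothelial marker Vwf and the fibroblast markers Dcn and Lum were close to background on every array. The macrophage marker Csf1r and the fibroblast marker Pdgfra were under the array median but not close to background on any array. Other markers were brighter. Both Col1a1 probe sets, of the fibroblast list, reached the array median on every array. For 1388116_at the wild type siRNA arrays read 1699 and 2868, the mutant siRNA arrays 1494 and 1371. In 1370864_at these values were 532 and 1006, then 692 and 907. Tek, the tested endothelial gene, reached the median on 3 arrays (138 and 142 against 114 and 110). The part of cell identity in the values of Enpep, Lnpep and Cpm was not tested.

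The rest of the pathway was taken from 10 lists of related peptidases, their peptides and receptors, and partners. The lists were chosen with earlier results of these data known. Of 133 genes with a probe set, 49 had at least 1 tested, 69 probe sets in all. By limma 5 of these were lower and 10 were higher, 7.25% and 14.5% of the 69, where 12.1% and 14.6% of all tested probe sets were. With the replicate number as a block 7 were lower and 19 higher, 10.1% and 27.5% of the 69, where that fit called 16.0% of all tested probe sets lower and 20.5% higher. Without an intensity trend in eBayes the list calls were 4 lower and 8 higher, and those of Erap1, Rab10 and Pigk were lost. In the following, p-values are from limma, adjusted over all tested probe sets. Because of how the lists were chosen, they describe single probe sets and are no independent test of a list.

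Among the other M1 aminopeptidases 8 probe sets were tested, with a median of 0.21. Aopep, the aminopeptidase O gene, was lower, with 559 and 674 against 1751 and 1413 (wild type against mutant siRNA), at -1.28 (SE 0.22, adjusted p = 0.00662). Its second probe set lay at -1.22 (adjusted p = 0.0628). Erap1, which trims peptides in the endoplasmic reticulum for antigen presentation, was higher, with 4341 and 5684 against 2880.1 and 3292, at 0.77 (adjusted p = 0.0229). The other 6 probe sets of this list were not called. Aopep lost its call without mutant siRNA replicate 1, and Erap1 when either of the mutant siRNA arrays or wild type siRNA replicate 2 was left out.

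The metallopeptidases that cut peptide hormones had 8 tested probe sets with a median of 0.51, none of them lower (0 also at an unadjusted p under 0.05 and by the methods' t-test) and 2 higher. Ide, the insulin-degrading enzyme, had 1310 and 1097 against 685 and 630 in the probe set that was called, at 0.95 (adjusted p = 0.0134), whereas its other probe sets lay at 0.08 and 0.28 and were not called. Nln, or neurolysin, which cuts neurotensin, had 1224 and 1041 against 646 and 604, at 0.93 (adjusted p = 0.0140). Both are mainly enzymes of the cytosol and mitochondria. Both lost their calls when either of the mutant siRNA arrays was left out.

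The dipeptidyl and prolyl peptidases other than Dpp4 had 12 tested probe sets and a median of 0.17, with 2 lower and 2 higher. Pepd, which splits dipeptides that end in proline and is known from collagen breakdown, was lower, with 1294 and 1276 against 4074.5 and 3631, at -1.50 (SE 0.18, adjusted p = 0.00209). Xpnpep1, a cytosolic aminopeptidase that cuts before proline, was higher, with 4371 and 3431 against 1410 and 1253, at 1.62 (SE 0.19, adjusted p = 0.00209). A single probe set of Dpp8, a cytosolic relative of Dpp4, was lower, with 158 and 107 against 545 and 581, at -2.04 (adjusted p = 0.00337), but its other probe sets lay at -0.04 and -0.13. Prepl, a relative of prolyl endopeptidase, was higher, with 1188 and 1019.5 against 571 and 558.5, at 1.04 (adjusted p = 0.00949). It was named after its values were seen, as the remaining call of this list, and was lost without mutant siRNA replicate 2. The calls of Pepd, Xpnpep1 and Dpp8 held with each array left out.

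Surface dipeptidases and glutamyl peptidases had 2 tested probe sets, neither called (0 also at an unadjusted p under 0.05 and by the methods' t-test). The other metallocarboxypeptidases had 4, ranging from -0.64 to 0.64, with 0 called by limma (1 at an unadjusted p under 0.05) and 0 by the methods' t-test. The 4 belonged to Agtpbp1 and Cpq, and no probe set of Cpz, Cpn1, Cpxm1, Cpxm2 or Aebp1 passed the filter. Whether these genes changed along with Cpm and Cpd was therefore not tested. Genes of prohormone processing and secretory granules, which act with Cpe, had 6 tested probe sets, between -0.42 and 0.68. None was called (1 at an unadjusted p under 0.05, and 2 by the methods' t-test before adjustment and 0 after).

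**Figure D4:**
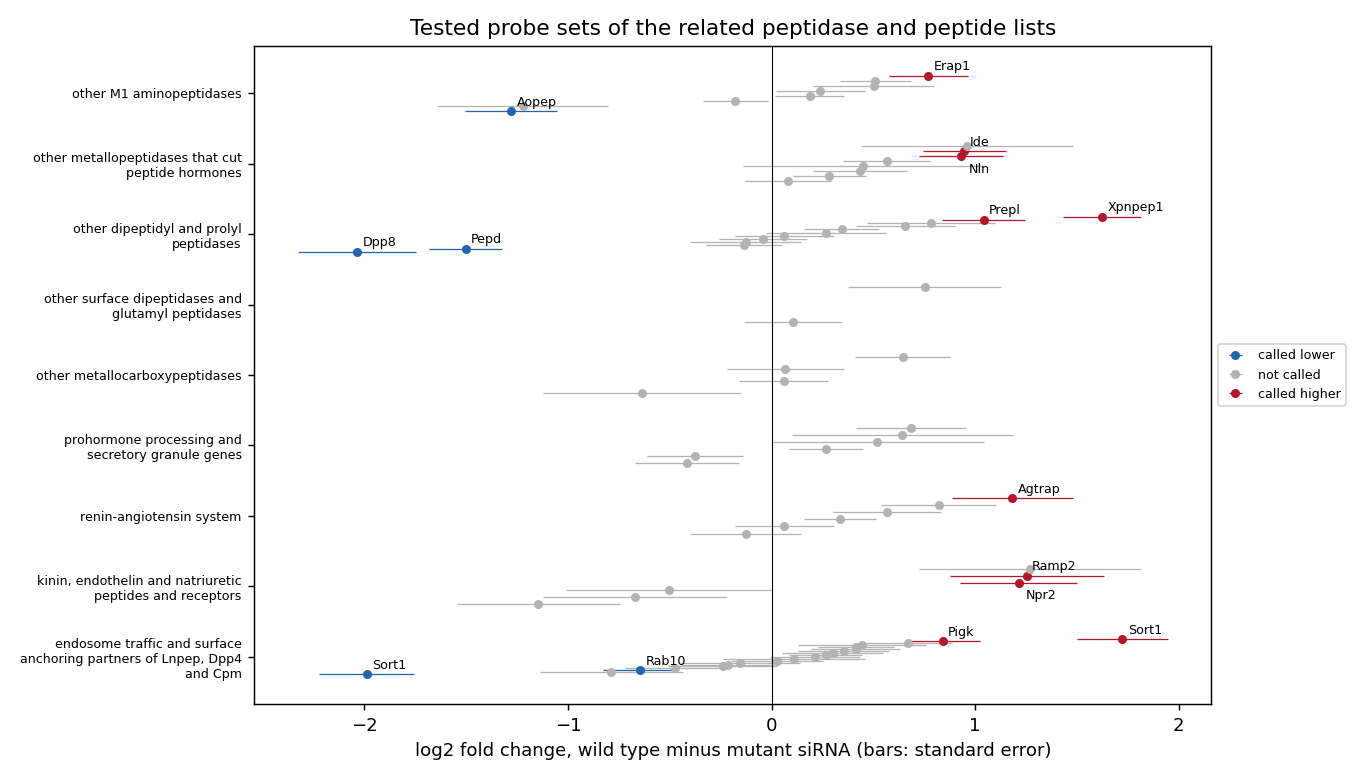
Log2 fold change, wild type minus mutant siRNA, of the tested probe sets in 9 of the 10 related lists, with standard errors. Blue points are called lower and red points called higher at an adjusted p under 0.05, grey points are not called, and the list of neuropeptides and their receptors is absent because none of its probe sets was tested. Calls run from -2.04 for Dpp8 to 1.72 for a probe set of Sort1, whose other called probe set lies at -1.99.

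In the renin-angiotensin system, where aminopeptidase A and the angiotensin-converting enzyme act, 6 probe sets were tested with a median of 0.45. Agtrap, a protein that binds the angiotensin receptor and promotes its uptake, was higher, with 499 and 337 against 169 and 215, at 1.18 (adjusted p = 0.0224). Its second probe set lay at 0.82 (adjusted p = 0.0629). The call was lost when wild type siRNA replicate 1 or either of the mutant siRNA arrays was left out. Agt, the angiotensinogen gene, was not tested, and its signals were 19.0 and 12.1 with the wild type siRNA and 111 and 84.3 with the mutant siRNA. None of the 6 was called lower (0 also at an unadjusted p under 0.05 and by the methods' t-test).

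Among kinin, endothelin and natriuretic peptides and their receptors, 6 probe sets were tested, 2 of them higher and none lower (1 lower at an unadjusted p under 0.05, and 0 by the methods' t-test). Ramp2, a partner of the adrenomedullin receptor, had 210 and 238 against 111 and 88.2, at 1.25 (adjusted p = 0.0414). Npr2, a receptor of natriuretic peptides, had 479.5 and 404 against 165 and 243.5, at 1.21 (adjusted p = 0.0181). Ramp2 was not called with any single array left out or with no filter on low signals, and Npr2 lost its call when replicate 1 of either group was left out. No probe set of the 32 neuropeptide and receptor genes passed the filter, and their 44 probe sets summed to 1224 and 1010 with the wild type siRNA and to 1103 and 1133 with the mutant siRNA. Transcripts for precursors of substrates, such as Penk for enkephalins and Tac1 for tachykinins, were thus too dim to test. The arrays do not measure the peptides themselves.

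Partners of Lnpep in endosome traffic and of Cpm and Dpp4 at the surface had 19 tested probe sets and a median of 0.21. Sort1, a sorting receptor of the same vesicles as Lnpep, had a probe set at -1.99 (SE 0.23, adjusted p = 0.00209), with 319 and 423 against 1607 and 1477, and another at 1.72 (SE 0.22, adjusted p = 0.00268), with 2106 and 1742 against 702.5 and 535. These opposite values held with each array left out, and no direction can be given for the gene. Rab10, a GTPase of this traffic, was at -0.64 (adjusted p = 0.0327) in a probe set with 1903 and 2253 against 3348 and 3493, and at 0.27 in another. Pigk, a subunit of the transamidase that attaches lipid anchors such as that of Cpm, was higher, with 4771 and 3881 against 2765.5 and 2330.3, at 0.84 (adjusted p = 0.0140). Rab10 lost its call when wild type siRNA replicate 1 or either of the mutant siRNA arrays was left out, and Pigk when wild type siRNA replicate 1 or mutant siRNA replicate 2 was.

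Profiles most like those of Enpep and Cpm were sought among 12696 other tested probe sets with a single symbol, by the Euclidean distance over the 4 arrays between log2 signals centred on each array's median and then on each probe set's mean. Nearest to Enpep was Afap1l2, an adaptor protein of actin filaments, at a distance of 0.24, with signals of 319 and 530.2 against 7034 and 4524. Next were the probe sets 1370628_at and 1379794_at of Gzmb, the serine protease granzyme B, at 0.28 and 0.39, the first with 114 and 205 against 2930 and 1538. Like Enpep, these were lower on wild type siRNA replicate 1 than on replicate 2, and higher on mutant siRNA replicate 1 than on replicate 2. Gzmb is among the genes that the study selected for their decrease on these arrays, so its likeness to Enpep is no independent observation. For Cpm the probe set with the higher mean log2 signal over the 4 arrays was used, which is 1394548_at, the one that was not called. To it Fhip2a, Armt1 and Sgk3 were nearest, at 0.02, 0.04 and 0.04. Their log2 fold changes were -0.47, -0.46 and -0.43. With 4 arrays such distances rest mostly on the difference between the groups.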

How the data were processed

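The 4 Affymetrix rat arrays carry a single colour each and hold RNA of RT4D6 cells with the wild type (2 arrays) or the mutant Sox10 siRNA (2 arrays). What the authors deposited are linear MAS5 signals, an intensity for every probe set, and no version of MAS5 stands in the submitters' processing notes. The detection calls of Methods were not used here. Low signals are noisy on this scale, so fold changes of dim probe sets depend on how they are treated, and the number of arrays limits the precision.

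Of 31099 probe sets, 57 controls were left out. The platform annotation gives a single symbol to 20826 of the rest, several to 436 and none to 9780. From each log2 signal the log2 median of its array was subtracted. Probe sets at or above the median on at least 2 arrays entered a limma fit (version 3.58.1, R 4.3.3) with lmFit and a trended eBayes, and a call needed an adjusted p (Benjamini-Hochberg) under 0.05. The code was tested on simulated data. Python 3.11.15 with pandas 2.3.3 and matplotlib 3.10.9 gave the tables and plots. The median log2 fold change of all tested probe sets was 0.13, and it was 0.05 with signals as deposited and 0.08 after quantile normalization.

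The members and lists were chosen with earlier results of these data known. Every member is named, as are up to 3 called genes of each list with the largest change, Sox10, markers and the 3 nearest profiles to Enpep and Cpm. Replicate numbers mark pairs of cell samples in the submitters' design, and arrays with the same number departed from their group means with a correlation of 0.14. The alternatives were other scalings, treatments of low signals, filters and variance models, the methods' t-test (taken as unpaired, on log2 values, with equal variances), a replicate block and each array left out.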

Additional observations from a re-analysis of the deposited data

How the results depend on the processing

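With each array left out in turn, where the lone array of a group is assumed to vary like the other group, the counts over all tested probe sets ran from 706 to 2519 lower (1956 with all arrays) and from 924 to 2128 higher (2348), those of the peptidases from 1 to 3 lower and stayed at 2 higher, and those of the related lists from 3 to 6 lower and 4 to 11 higher. The 2 higher peptidase probe sets were not the same throughout. Without replicate 1 of the wild type siRNA, Lnpep probe set 1369376_a_at lost its call and Cpe, at 0.65, gained one. The log2 fold change of Sox10 ran from -4.09 to -3.00. That of Mme, -0.20 with all arrays, ran from -0.49 to 0.078 and was above 0 only without replicate 1 of the wild type siRNA. Without an intensity trend in eBayes, 1187 probe sets were lower and 1177 higher, and of the peptidases only Enpep stayed lower (1), and Erap1, Rab10 and Pigk of the lists lost their calls. The methods' t-test after adjustment called 0 probe sets lower and 2 higher of all, and 0 in either direction of the peptidases and of the lists (limma called 5 lower and 10 higher of the lists), and it left Sox10 at -3.54 without a call. At an unadjusted p under 0.05 that test had 1386 lower and 2444 higher of all, 2 lower and 1 higher of the peptidases, and 5 and 13 of the lists. Filters that require the array median on all 4 arrays, or on both mutant siRNA arrays, left 0 peptidase probe sets higher, because both Lnpep probe sets were then not tested. The replicate block raised the calls to 2580 lower and 3308 higher of all tested probe sets and to 7 lower and 19 higher of the lists, and gave Cpe a call. Cpd lost its call with a pseudocount, and Cpd and Ramp2 with no filter on low signals. Of the named log2 fold changes, none but that of Mme changed direction, and none lost or gained a call with signals as deposited, with quantile normalization or with signals raised to the 25th percentile. Dim signals limit Ace, Anpep and Dpp4, which were not tested, and the size of the Cpm decrease.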
